A study of Mus musculus with 10 samples.

Results

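Vinculin, the talins, kindlin-2, the ILK-PINCH-parvin complex, zyxin and paxillin are the adaptor proteins that connect integrins in the cell membrane to the actin filaments inside the cell. Their genes, Vcl, Tln1, Tln2, Fermt2, Ilk, Lims1, Lims2, Parva, Zyx and Pxn, were chosen by name, with earlier results of these data known. All 10 are among the 23337 genes of the deposited table. RNA was measured in sorted heart muscle cells (cardiomyocytes) of mice with loss of Actn2, the gene of the Z-line protein alpha-actinin-2. The knockout group (Actn2-FF) carries 2 floxed alleles of Actn2, alleles that the recombinase Cre can cut, and the control group (Actn2-F+) carries 1 floxed and 1 normal allele. Both groups received AAV9-cTNT-Cre, an adeno-associated virus in which the promoter of cardiac troponin T, a heart muscle gene, drives Cre, at 3.6e+08 vector genomes per gram on postnatal day 1. Cells were taken on postnatal day 14 by collagenase perfusion and fluorescence-activated sorting, and each group has 5 samples, which the study's design calls biological replicates without saying whether each is 1 animal. The controls are therefore heterozygous for the deletion and exposed to Cre, and no group with 2 normal alleles or without virus is compared here. The labels do not say which signal the sort used, nor what part of the cells the virus reached.

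At a focal adhesion, and at its muscle counterpart the costamere, which ties the Z-line to the cell membrane, talin binds the tail of the integrin beta chain and activates the receptor together with kindlin. Vinculin binds talin and actin when the talin rod is stretched, and also binds alpha-actinin. The kinase-like protein ILK, the LIM protein PINCH and parvin form a complex that binds integrin tails and actin, while zyxin and paxillin are LIM proteins that bring signalling and actin-assembly factors to the site. In the heart these proteins sit at costameres and, for vinculin and talin relatives, at the intercalated discs that join neighbouring cells.

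Total counts per sample ran from 8086656 to 25237696, and the 10 genes had 239 to 7436 counts each in single samples. Over the whole table replicates differed by more than counting error, but this was not tested gene by gene. The targeted gene Actn2 was at 1145 to 1286 CPM (normalised read counts, scaled to the library size with TMM) in the knockout and at 2677 to 3474 CPM in the heterozygote. Knockout over heterozygote, this was -1.39 on the log2 scale (SE 0.091, edgeR adjusted p 3.48e-07), and the groups did not overlap. The knockout was therefore at 0.38 of the heterozygote level, with RNA of the gene still counted. The cardiomyocyte markers, 12 of 12 in the table, summed to 110682 to 137601 CPM in the knockout and 111937 to 137872 CPM in the heterozygote, with Mybpc3 called higher (log2 fold change 0.43) and Tnni3 lower (-0.53). Endothelial markers, 12 of 12 in the table, summed to 405 to 717 CPM in the knockout and 606 to 1004 CPM in the heterozygote. Of these markers, 2 were called lower (Egfl7 and Cldn5, 16.7%, beside 8.64% of all tested genes) and 0 higher (beside 10.2%). Their median log2 fold change was -0.43. None of these 12 was at 0. The 10 fibroblast markers summed to 343 to 684 and 373 to 588 CPM, and the 8 smooth-muscle and pericyte markers to 542 to 697 and 475 to 700.2 CPM, in knockout and heterozygote. The median log2 fold changes of these lists were -0.25 and -0.33. Among the smooth-muscle and pericyte markers Cspg4 was called higher, from 37 ± 6.39 to 132 ± 21.3 CPM (SD, n = 5 each, edgeR adjusted p 1.23e-06, groups apart). Abcc9, the most abundant of this list, was at 388 CPM in the heterozygote and 324 CPM in the knockout and was not called. It made up much of the list's sum, and which cells its RNA came from was not tested. The part of endothelial, fibroblast, smooth-muscle and pericyte cells in the results below was not tested. Endothelial and fibroblast marker levels were used as covariates. Endothelial levels were themselves lower in the knockout, so adjusting for them can also take away part of a genotype difference. The 8 leukocyte markers summed to 6.34 to 9.24 and 10.8 to 26 CPM, and Ptprc, Itgam, Emr1, Cd3e and Cd79a were each below a mean of 1 CPM, while Csf1r was called lower (-0.86).

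The comparison of the genotypes asked how the adhesion adaptors were expressed when alpha-actinin-2 was lost. Tln1 rose by 1.00 on the log2 scale in the knockout, Zyx rose 2.16-fold and Ilk 1.36-fold, and Lims2 fell to 0.67 of the heterozygote level. The other 6 genes, Vcl among them, did not pass the threshold, with fold changes of 1.02 (Tln2) to 1.16 (Parva and Pxn). All 10 passed the filter on low counts. In edgeR's quasi-likelihood test with adjustment over 11870 genes, 3 of the 10 were called higher, where 10.2% of all tested genes were, and 1 was called lower, where 8.64% were. Called either way were 4 of 10, against 18.9% of all tested genes. All knockouts lay above all heterozygotes for 3 of the 10, beside 8.41% of all tested genes, and below them for 0 of the 10, beside 6.32%. The median log2 fold change was 0.20 over the 10 genes and 0.0023 over all tested genes. In bulk RNA, fewer cells of a type and less RNA per cell cannot be told apart.

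**Figure D1:**
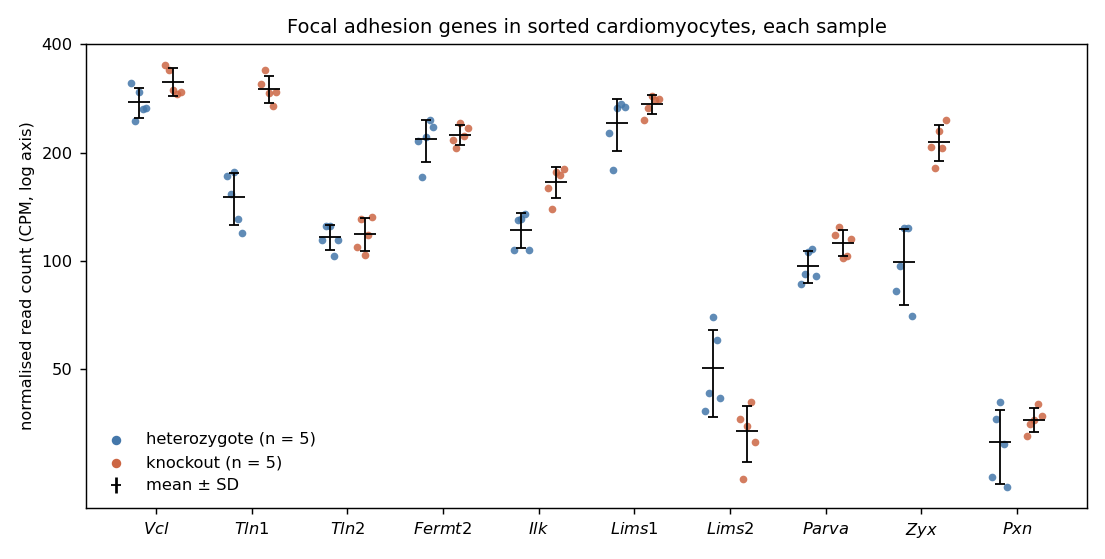
Normalised read count (CPM, log axis) of the 10 focal adhesion genes, with 1 point per sample, heterozygotes in blue and knockouts in orange, and the mean ± SD of 5 samples in black. The groups lie apart for Tln1 (119.6 to 176 CPM against 269 to 339 CPM), for Zyx and for Ilk, and overlap for the remaining 7 genes.

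Vinculin binds alpha-actinin directly, and its gene Vcl (mm10 chromosome 14, 20929433 to 21033673, plus strand, 21 exons in the annotation used for counting) was not called. It was at 312, 244, 294, 265 and 266 CPM in heterozygotes 1 to 5. Vcl was at 350.1, 339.6, 299, 290.0 and 294 CPM in knockouts 1 to 5. Knockouts 1 and 2 lay above every heterozygote, while the other 3 knockouts lay within the heterozygote range. The means were 276 ± 27 CPM in the heterozygote and 314 ± 28.1 CPM in the knockout (SD, n = 5 each). This difference, 0.19 as a log2 fold change (SE 0.0956), had an edgeR adjusted p of 0.196. It passed only with scaling by library totals alone (0.27, edgeR adjusted p 0.0488), a setting that raised the median of all genes to 0.0839. Counts per gene do not separate vinculin from its muscle splice form metavinculin.

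Talin is encoded by 2 genes, Tln1, which is expressed in most tissues, and Tln2, which is prominent in adult striated muscle. Tln1 (chromosome 4, 43531513 to 43562583, minus strand, 57 exons) was at 172, 153, 176, 131 and 119.6 CPM in heterozygotes 1 to 5. In knockouts 1 to 5 it was at 311, 339, 292, 269 and 294 CPM. Every knockout lay above every heterozygote, the lowest knockout being at 269 CPM and the highest heterozygote at 176 CPM. The smallest adjusted p of the 10 genes was that of Tln1 (4.63e-05 in edgeR, for a change of 1.00 with SE 0.117), and 345 of the 11870 tested genes rose by as much or more. Over the fits that left out 1 sample the change was 0.93 to 1.06, and over the other settings 0.96 to 1.09. Tln2 (chromosome 9, 67217085 to 67559703, minus strand, 58 exons) was at 114, 125, 125, 103 and 114 CPM in the heterozygotes and 109, 131, 104, 118 and 132 CPM in the knockouts. Knockouts 2 and 5 lay above every heterozygote in Tln2 and the other 3 within the heterozygote range, and the change of 0.03 on the log2 scale (SE 0.097, adjusted p 0.863 in edgeR) was within the spread between samples and changed sign under 5 settings.

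The balance of the talins was measured as the share of Tln2 in the sum of both after dividing counts by gene length. Tln2 made up 35.6% ± 3.19 in the heterozygote and 21.8% ± 1.94 in the knockout (SD, n = 5 each). Heterozygote shares were 31.9, 36.6, 33.4, 35.7 and 40.2%, and knockout shares were 19.8, 21.5, 20.2, 23.6 and 24%, with no overlap. The lowest heterozygote share had a Wilson 95% interval of 30.9 to 33%, and the highest knockout share one of 23.1 to 24.9%. The difference of -13.8 percentage points gave an exact two-sided permutation p of 0.00794, the smallest possible with 5 against 5 samples. Benjamini-Hochberg adjustment over the 3 shares computed made it 0.0119. The share is built from the same counts as the test of Tln1 and is not independent of it. The summed talin level per length was 27.1 ± 3.41 RPKM in the heterozygote and 45 ± 3.54 RPKM in the knockout (SD, n = 5 each).

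Kindlin-2, the kindlin of heart muscle, acts with talin on integrin tails, and its gene Fermt2 (chromosome 14, 45458792 to 45530065, minus strand, 15 exons) did not differ beyond the spread. Fermt2 was at 215, 171, 220.4, 247 and 236 CPM in the heterozygotes and 216, 206, 241, 223 and 234 CPM in the knockouts. All 5 knockouts lay within the heterozygote range (log2 fold change 0.04, SE 0.103, edgeR adjusted p 0.835). The sign of Fermt2 changed without heterozygote 2 (-0.03).

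The ILK-PINCH-parvin complex is made of these 3 components, and of its genes Ilk was called higher, Lims2 lower, and Lims1 and Parva neither. Ilk (chromosome 7, 105736590 to 105742925, plus strand, 14 exons) encodes the complex's pseudokinase core and was at 107, 130.2, 131, 135 and 107 CPM in heterozygotes 1 to 5. In knockouts 1 to 5 Ilk was at 159.8, 139.5, 176, 173 and 179.9 CPM. The groups did not overlap, although knockout 2 at 139.5 CPM was close to heterozygote 4 at 135 CPM. Ilk had a log2 fold change of 0.44 with SE 0.104 and an adjusted p of 0.00859 in edgeR. Its exons overlap those of Rrp8 and Taf10 on the other strand, and how reads there were shared out was not tested.

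PINCH-1 and PINCH-2 are alternative adaptors that bind ILK, encoded by Lims1 and Lims2. Lims1 (chromosome 10, 58323466 to 58424691, plus strand, 13 exons) was at 227, 179, 266, 272 and 267 CPM in the heterozygotes and 246, 266, 287, 279.9 and 282 CPM in the knockouts. The change of Lims1, 0.17 on the log2 scale (SE 0.114, adjusted p 0.339 in edgeR), did not pass, and heterozygote 2 was the lowest sample. Lims2 (chromosome 18, 31931507 to 31958619, plus strand, 10 exons) was at 38.3, 42.9, 69.6, 60.1 and 41.5 CPM in heterozygotes 1 to 5, and at 36.3, 24.7, 34.8, 40.6 and 31.3 CPM in knockouts 1 to 5. Heterozygotes 3 and 4 were highest, and knockout 4 lay within the heterozygote range. Lims2 had a log2 fold change of -0.59 with SE 0.174 and an adjusted p of 0.0295 in edgeR.

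Leaving out 1 sample ended the call on Lims2 in 5 of 10 cases, with edgeR adjusted p of 0.0716 without heterozygote 3, 0.0641 without heterozygote 4, 0.0744 without knockout 2, 0.0565 without knockout 3 and 0.0645 without knockout 5. It was also lost with library totals alone (0.0614) and with limma's voom (adjusted p 0.0548). Summed endothelial marker levels were 1004 CPM in heterozygote 4 and 829 CPM in heterozygote 3, the 2 samples highest in Lims2. They were 606 to 721 CPM in the other heterozygotes. In knockouts 1 to 5 they were 539.8, 612, 505, 717 and 405 CPM. Knockout 4 was the highest knockout in both measures, but knockout 2, at 612 CPM, was the lowest of all samples in Lims2 (24.7 CPM). With endothelial marker expression as a covariate the log2 fold change of Lims2 was -0.25 (edgeR adjusted p 0.513). These markers were themselves lower in the knockout, so the covariate cannot separate endothelial cells from genotype. The same covariate left Tln1 at 0.96 (edgeR adjusted p 0.00248), Zyx at 1.29 (0.00185) and Ilk at 0.51 (0.0388). Part of the exon sequence of Lims2 overlaps Gpr17 on the other strand.

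By length-scaled counts, Lims2 made up 37.6% ± 5.23 of the 2 PINCH genes in the heterozygote and 26.5% ± 3.69 in the knockout (SD, n = 5 each). Shares ran from 31.3% (Wilson 95% interval 29.1 to 33.5%) to 43.4% in the heterozygote and from 21.4% to 30.2% (27.9 to 32.6%) in the knockout. The samples did not overlap, but the intervals of the nearest samples did. The difference of -11.2 points had an exact permutation p of 0.00794, or 0.0119 when adjusted in the same way, and is not independent of the test of Lims2. As a share of raw counts, not divided by length, the difference was -6.23 points (exact permutation p 0.00794). The summed PINCH level was 78.9 ± 14.1 RPKM in the heterozygote and 74.9 ± 5.1 RPKM in the knockout (SD, n = 5 each), a difference within the spread.

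Alpha-parvin, the actin-binding component, is encoded by Parva (chromosome 7, 112427706 to 112591688, plus strand, 13 exons). Parva was at 86.1, 91.8, 106, 108 and 90.8 CPM in the heterozygotes and 118, 124, 102, 103 and 115 CPM in the knockouts. Knockouts 1, 2 and 5 lay above the heterozygote range, and the change of 0.22 on the log2 scale (SE 0.0965, edgeR p 0.0395 unadjusted, 0.132 adjusted) did not pass. The beta-parvin gene Parvb was at 21.5 ± 4.09 CPM in the heterozygote and 19.1 ± 2.62 CPM in the knockout (SD, n = 5 each), a change of -0.17 on the log2 scale (SE 0.144, adjusted p 0.468 in edgeR). Neither gene was called, while the share of Parvb in the length-scaled sum was 21.1% ± 3.11 in the heterozygote and 17% ± 1.7 in the knockout (SD, n = 5 each). These shares overlapped, from 18.6 to 26.5% and from 15.3 to 19.4%. The difference of -4.08 points had an exact permutation p of 0.0238, also 0.0238 after adjustment, and was -2.73 points (exact permutation p 0.0476) without heterozygote 2.

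**Figure D2:**
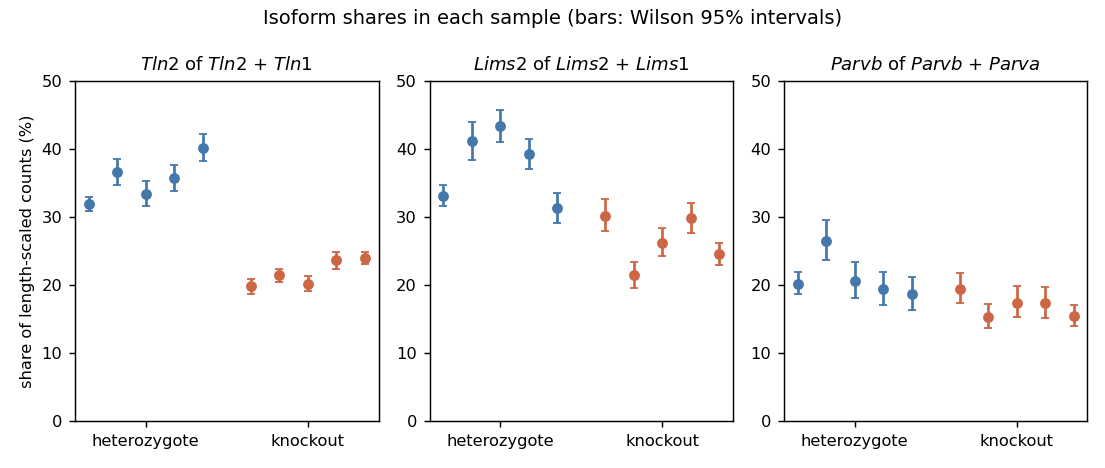
Share of the second gene of each isoform pair in the length-scaled counts (%), for 5 heterozygotes (blue) and 5 knockouts (orange), with Wilson 95% intervals for counting error. Tln2 lies between 31.9 and 40.2% in the heterozygote and between 19.8 and 24% in the knockout, Lims2 shares are adjacent at 31.3 and 30.2%, and Parvb shares overlap.

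Zyxin marks adhesions under tension and recruits Ena/VASP proteins, while paxillin is a docking protein for adhesion kinases. Zyx (chromosome 6, 42349828 to 42358395, plus strand, 10 exons) was at 82.4, 96.4, 123, 123 and 70 CPM in heterozygotes 1 to 5. It was at 207, 181, 229, 206 and 246 CPM in knockouts 1 to 5. The groups were apart, with the lowest knockout at 181 CPM and the highest heterozygotes at 123 CPM. The change of Zyx was the largest of the 10 genes at 1.11 on the log2 scale (SE 0.152, adjusted p 0.000176 in edgeR), and 277 of the tested genes rose by as much or more. Leaving out single samples moved it between 1.01 and 1.20, and the other settings between 1.08 and 1.29. Pxn (chromosome 5, 115506702 to 115555986, plus strand, 12 exons) was the lowest of the 10 per length and was at 25, 36.3, 40.5, 31 and 23.5 CPM in the heterozygotes and 32.5, 35.1, 36, 40 and 37.1 CPM in the knockouts. All knockout values of Pxn lay within the heterozygote range (log2 fold change 0.22, SE 0.143, edgeR adjusted p 0.322).

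**Figure D3:**
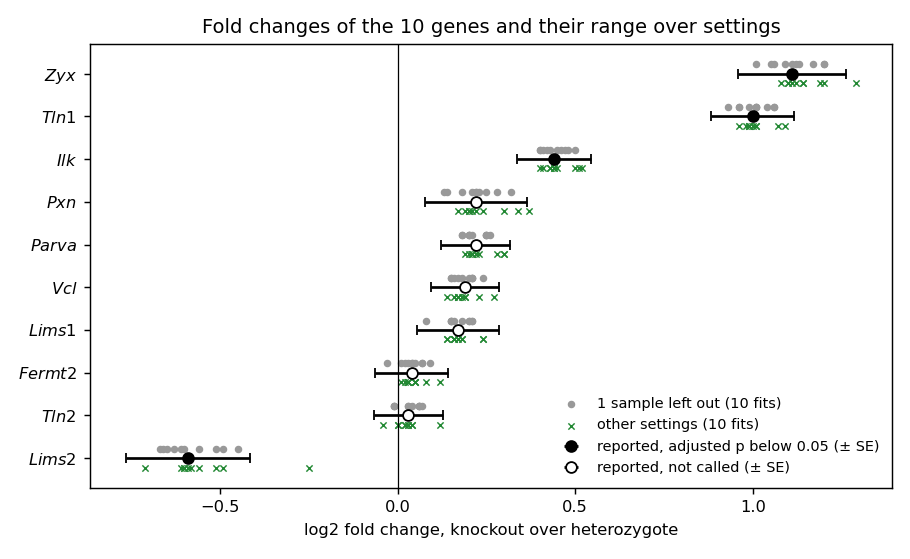
Log2 fold change (knockout over heterozygote) of each gene ± SE, filled where the edgeR adjusted p is below 0.05, with grey points for the 10 fits that left out 1 sample and green crosses for 10 other settings. Zyx (1.01 to 1.29), Tln1 (0.93 to 1.09) and Ilk (0.40 to 0.52) stay on 1 side of 0, while Lims2 runs from -0.71 to -0.25 and Tln2 straddles 0.

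Counts divided by gene length put the 10 genes on 1 scale. In the heterozygote, Fermt2 at 67.2 ± 8.99 RPKM and Ilk at 65 ± 7.18 RPKM were highest, followed by Vcl (52.8 ± 5.17), Lims1 (49 ± 7.99), Zyx (40.6 ± 9.8), Lims2 (29.9 ± 8.08), Parva (21.7 ± 2.23), Tln1 (17.6 ± 2.9), Tln2 (9.59 ± 0.763) and Pxn (8.27 ± 1.92; RPKM, SD, n = 5). In that order the sample ranges of neighbours overlapped except between Tln1 and Tln2. In the knockout, Ilk at 88.1 ± 8.72 RPKM and Zyx at 87.7 ± 10.2 RPKM led, with overlapping ranges. Tln1 at 35.2 ± 3.04 RPKM lay apart from Lims1 above it (55 ± 3.37) and from Parva below it (25.2 ± 2.15). The coefficient of variation was lower in the knockout than in the heterozygote for 9 of the 10 genes, all but Tln2, and for 65.3% of all tested genes. Its median over the 10 genes was 8.8% in the knockout and 14.9% in the heterozygote, beside 13.7% and 17.6% over all tested genes.

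Promoter sequence was searched for the CArG box, which is bound by serum response factor, a known regulator of cytoskeletal genes. RefSeq starts (build GRCm38.p6, the assembly of mm10) were at hand for 6 of the 10 genes. None was at hand for Tln2, Parva, Lims2 or Pxn. The 250 bases before the start are shown for the 3 that rose and for the 2 with a CArG match, 5′ to 3′ on the strand of the gene, with the match in capitals.
Tln1 (chr4:43562584-43562833, minus strand): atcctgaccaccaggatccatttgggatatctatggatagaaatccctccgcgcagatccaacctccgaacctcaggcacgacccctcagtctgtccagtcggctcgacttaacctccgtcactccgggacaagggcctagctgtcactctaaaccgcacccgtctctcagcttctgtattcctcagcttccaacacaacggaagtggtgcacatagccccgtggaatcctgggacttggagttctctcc
Zyx (chr6:42349578-42349827, plus strand): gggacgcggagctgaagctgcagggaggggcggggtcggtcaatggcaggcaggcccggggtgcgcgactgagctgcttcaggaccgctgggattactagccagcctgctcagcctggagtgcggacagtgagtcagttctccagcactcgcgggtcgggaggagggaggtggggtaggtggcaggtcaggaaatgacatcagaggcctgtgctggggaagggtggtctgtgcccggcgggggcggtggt
Ilk (chr7:105736340-105736589, plus strand): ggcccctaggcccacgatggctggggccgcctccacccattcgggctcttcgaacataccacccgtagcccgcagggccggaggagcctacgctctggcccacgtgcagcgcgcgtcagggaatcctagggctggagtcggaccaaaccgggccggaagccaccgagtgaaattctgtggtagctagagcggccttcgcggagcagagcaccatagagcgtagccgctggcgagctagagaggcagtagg
Vcl (chr14:20929148-20929397, plus strand): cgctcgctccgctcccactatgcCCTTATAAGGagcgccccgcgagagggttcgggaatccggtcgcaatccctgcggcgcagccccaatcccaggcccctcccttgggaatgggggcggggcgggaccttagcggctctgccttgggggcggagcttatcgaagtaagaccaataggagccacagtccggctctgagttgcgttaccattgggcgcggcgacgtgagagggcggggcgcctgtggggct
Fermt2 (chr14:45530066-45530315, minus strand): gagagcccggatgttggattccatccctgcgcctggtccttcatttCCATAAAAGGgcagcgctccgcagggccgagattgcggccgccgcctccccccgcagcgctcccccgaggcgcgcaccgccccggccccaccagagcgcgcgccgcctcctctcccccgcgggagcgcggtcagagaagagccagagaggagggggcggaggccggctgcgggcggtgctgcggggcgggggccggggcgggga

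A CArG box, searched on both strands, lay 227 bases before the start of Vcl and 204 bases before that of Fermt2. Neither of these genes was called. No match was found in the windows of Tln1, Zyx, Ilk (2 starts) or Lims1 (3 starts). Of 32536 distinct windows of all RefSeq promoters, 1.48% held a match. A match is a description of the letters and was not tested as a binding site.

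The genes most like these across the 10 samples were named by the Pearson r of log2 CPM over the 8369 genes whose mean was 10 CPM or more. Closest to Tln1 were the flippase gene Atp8a2 (r 0.99), Flnc (0.99), which encodes filamin C, Col4a5 (0.98), which encodes a basement membrane collagen chain, the integrin gene Itga9 (0.98) and Nrap (0.98), which encodes an actin-binding protein of intercalated discs. These 5 genes had log2 fold changes of 1.30, 1.32, 1.12, 1.15 and 1.03. Since they were picked by likeness to Tln1 over samples of both genotypes, the choice itself fixes a difference in the same direction. Closest to Vcl were Calu (0.96), Setd3 (0.96), Anapc1 (0.95) and Ppp2r5c (0.94), with log2 fold changes of 0.11, 0.11, 0.26 and 0.10, none of them called (edgeR adjusted p 0.402, 0.443, 0.0983 and 0.423). These values describe likeness over 10 samples that share their normalisation.

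Other genes of the adhesion were taken from 5 lists, with 96 of 112 genes tested. The lists were also chosen with earlier results of these data known, so the shares called below are descriptive. Of these, 28 were called higher (29.2%, beside 10.2% of all tested genes), 5 lower (5.21%, beside 8.64%), and 63 were not called. The median log2 fold change was 0.14, beside 0.0023 over all tested genes. Among linkers between the adhesion and actin, 13 of 24 tested genes were called higher and 0 lower, with a median of 0.33, and the other 4 lists held 15 of the 28 rises. The actin linker Sorbs2, the gene of a vinculin-binding adaptor of the Z-line, rose from 417 ± 57.5 to 1349 ± 123 CPM (SD, n = 5 each). In the same list Sorbs3, the gene of vinexin, rose from 18.1 ± 7.48 to 46.8 ± 10.5 CPM. Their log2 fold changes were 1.69 (SE 0.11, edgeR adjusted p 3.48e-07) and 1.38 (SE 0.242, edgeR adjusted p 0.00122). Exons of Sorbs2 overlap D330022K07Rik on the other strand. Pdlim7 of this list, which encodes a PDZ-LIM protein that binds actin filaments, rose by 1.37 (SE 0.151, edgeR adjusted p 2.92e-05). The zyxin-binding Vasp was not called (-0.16, edgeR adjusted p 0.359), and was chosen for naming after its value was seen, as were Itgb1, Itga7 and Ptk2 below.

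Relatives of the 10 genes gave 4 higher and 2 lower of 12 tested (33.3% and 16.7%, beside 10.2% and 8.64% of all tested genes), with a median of 0.20. The zyxin relatives Lpp (log2 fold change 0.58, SE 0.12, edgeR adjusted p 0.00397) and Ajuba, listed as Jub (0.79, SE 0.157, edgeR adjusted p 0.00293), rose, as did the paxillin relative Tgfb1i1 (0.84, SE 0.23, edgeR adjusted p 0.0203). Exons of Lpp overlap 1110054M08Rik on the other strand, and the groups of Tgfb1i1 overlapped. Fblim1, which encodes migfilin, an adaptor that binds filamin and kindlin-2, fell from 487 ± 45.3 to 345 ± 41.3 CPM (SD, n = 5 each; log2 fold change -0.50, edgeR adjusted p 0.00368). The paxillin relative Lpxn and the parvin relative Parvg were below a mean of 1 CPM, and Fermt1 had 0 counts in every sample.

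Kinases and signalling adaptors gave 6 higher and 0 lower of 24 tested (25% and 0%, beside 10.2% and 8.64% of all tested genes). The largest rise above the level limit was that of Ptk2b, the gene of the kinase PYK2, from 6.91 ± 1.99 to 22.3 ± 3 CPM (SD, n = 5 each; log2 fold change 1.68, edgeR adjusted p 3.30e-05). Its relative Ptk2, the gene of focal adhesion kinase, was at 48.6 ± 5.07 and 49.2 ± 4.54 CPM (SD, n = 5 each; 0.02, edgeR adjusted p 0.927). The PIX genes Arhgef6 (0.60, edgeR adjusted p 0.000482) and Arhgef7 (0.55, edgeR adjusted p 0.00141), which encode exchange factors for small GTPases, also rose.

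Regulators of talin and ILK gave 2 higher (Kank1, 0.45, and Ppfibp1, 0.38) and 2 lower of 22 tested, 9.09% each way, near the 10.2% and 8.64% of all tested genes. The lower genes were Kank3 (-0.73, SE 0.147, edgeR adjusted p 0.00321), of a family that binds talin, and Itgb1bp2 (-0.61, SE 0.108, edgeR adjusted p 0.00136), which encodes melusin, a muscle protein that binds the integrin beta 1 tail. Integrin subunits gave 3 higher and 1 lower of 14 tested (21.4% and 7.14%, beside the same 10.2% and 8.64%). Itga9 (1.15), Itga5 (0.95) and Itgav (0.55) were higher and Itga1 (-0.49) lower. Itgb1, the beta chain to which talin and kindlin bind in the heart, was at 734 ± 109.9 and 775 ± 46.9 CPM (SD, n = 5 each; 0.08, edgeR adjusted p 0.671), and Itga7 did not pass (0.29, edgeR adjusted p 0.256). With endothelial marker expression as a covariate, the calls on Kank3, Kank1, Ppfibp1, Jub, Itgav and Itga1 were lost (edgeR adjusted p 0.113, 0.0694, 0.139, 0.0546, 0.0848 and 0.528). Those on the other 12 genes named from the lists held. In the same order, the log2 fold changes were -0.44, 0.44, 0.32, 0.71, 0.61 and -0.17 with the covariate. Without it they were -0.73, 0.45, 0.38, 0.79, 0.55 and -0.49, so a lost call did not always go with a smaller change. Calls over all tested genes fell from 2241 to 1099 with this covariate. Since the covariate was itself lower in the knockout, a lost call cannot separate endothelial cells from genotype. Tgfb1i1 lost its call with the fibroblast covariate (edgeR adjusted p 0.0559) and without knockout 3 (0.0612), and Itgav without knockout 2 (0.0596). Itga1 lost it with the fibroblast covariate (edgeR adjusted p 0.105), with library totals alone (0.0668), without heterozygote 3 (0.0522) and without knockout 1, 3 or 5 (0.0562, 0.0505 and 0.0523).

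**Figure D4:**
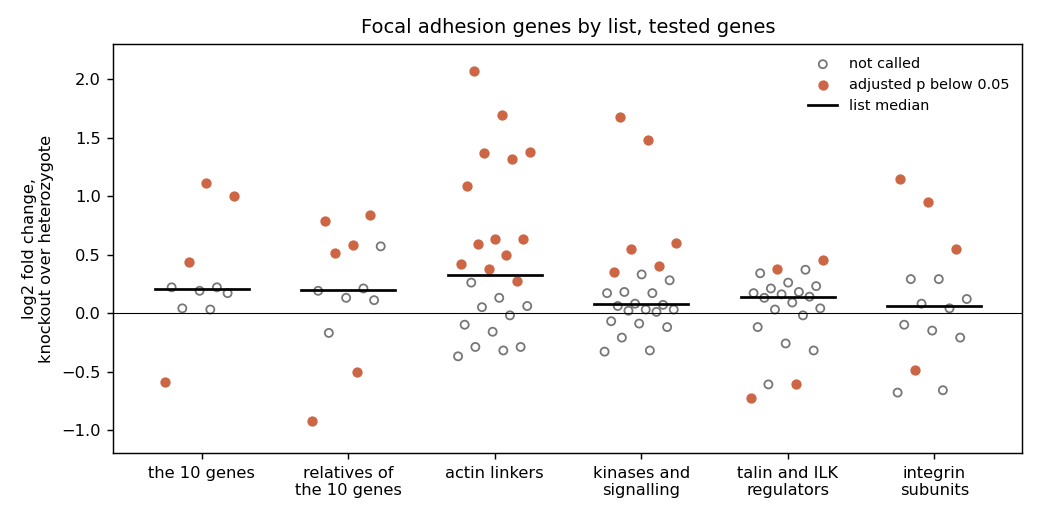
Log2 fold change (knockout over heterozygote) of each tested gene in the 10 focal adhesion genes and in 5 lists of related genes, with called genes filled and the list median as a bar. Actin linkers have 13 of 24 genes called higher (54.2%, beside 10.2% of all tested genes). Their median is 0.33, against medians of 0.06 to 0.20 in the other lists and in the 10 genes.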

How the data were processed

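The table of the series holds whole numbers of reads per gene. The authors made these counts with featureCounts 1.5.1 on 4 threads, setting no option for strand or multiply mapped reads, against a UCSC mm10 annotation, per the file headers. The submitters' processing notes name STAR 2.5.3a and Subread 1.5.2, but the alignment files listed in the header are named as another aligner names its output by default. At default settings featureCounts ignores strand and drops reads that map to several places or overlap several genes. Another 4 columns match no sample and were not used. Gene lengths and coordinates are those of the deposited table.

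Genes were filtered with filterByExpr (minimum count 10, minimum total 15), scaled with TMM, and compared with edgeR 4.0.16 (quasi-likelihood F test, R 4.3.3), with Benjamini-Hochberg adjustment over 11870 genes and a threshold of 0.05. SE is the size of the log2 fold change divided by the square root of F. Shares used exact two-sided permutation tests (scipy 1.17.1) over all 252 arrangements. The edgeR fit, but not the permutation test, was also run on simulated counts, and the outcome is not given here. Wilson intervals cover counting error only and treat every read as a separate molecule. Reads copied by PCR are not separate molecules, so the intervals can be too narrow. A floor of 3 counts is 1.19e-05% to 3.71e-05% of a sample's total. Over 20 replicate pairs a chi-square gave 10.8 to 37.5 per degree of freedom, so none agreed within sampling noise.

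The genes and lists were chosen with earlier results of these data known. Named were Actn2, the 10 genes, Parvb, up to 3 called genes per direction and list (those of largest change among genes averaging 5 CPM or more), and the 5 genes most like Vcl and Tln1, of which 1 is not reported here. The alternatives were RLE, upper-quartile and library-total scaling, no filter, a mean of at least 5 CPM, the replicate number as a block, DESeq2 1.42.0, limma 3.58.1 voom with sample weights, endothelial or fibroblast covariates, shares of raw counts, and leaving out each sample.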

Additional observations from a re-analysis of the deposited data

Results flagged for a closer look

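In 32 groups of 5 values (total counts, Actn2, the 10 genes, Parvb and the 3 shares in each genotype), 3 had an extreme sample that lay further from its neighbour than 0.71 of the group's range. Chance gives about 1 in 20 groups. The total count of heterozygote 1 was 25237696, and the next highest of its group was 10309615, a distance of 0.870 of the range. Without it, 4 of the 10 genes were called, 3 higher and 1 lower, as with all samples. Knockout 1 stood apart in Parvb with a log2 CPM of 4.57, the nearest knockout being at 4.23 (0.783 of the range). In heterozygote 2 Parvb made up 26.5% of the parvin sum (Wilson 95% 23.7 to 29.5%), and the nearest heterozygote was at 20.6% (0.747 of the range). Leaving out heterozygote 2 moved the difference of the Parvb share from -4.08 to -2.73 percentage points.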

How the results depend on the processing

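Actn2, Tln1, Zyx and Ilk kept their direction and their call in the 10 fits that left out 1 sample and in 10 other settings, and Lims1, Parva and Pxn stayed positive and uncalled in them. Of the 10 genes, 3 to 4 were called in each setting. Of 200 values for the 10 genes, 8 lost the call (all of Lims2), 1 gained it (Vcl) and 6 changed sign (Tln2 and Fermt2, neither of which was called). Tln2 reversed with the endothelial covariate (-0.04) and voom (-0.00), and ran from -0.01 to 0.07 when single samples were left out. Fermt2 ran from -0.03 to 0.09 then. Called genes over the whole table numbered 2241, and 1099 (558 higher, 541 lower) with the endothelial covariate, where the cause was not tested. Library totals alone gave 1684 higher and 760 lower, in place of 1216 and 1025. Of 18 genes named from the lists, 11 held their call in all 20 settings, and 15 of their 360 values lost it.

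Samples of the same replicate number in both groups deviated together in 3 of 5 pairs only (correlations -0.0604 to 0.185), and the labels do not tie the numbers to a litter or batch, so the numbers were not used as pairs. A replicate block gave 2182 calls, with the same 4 of the 10 genes called, and only the samples numbered 4 and 5 correlated best with their own number. For the shares, the replicate block kept the differences of -13.8 (Tln2), -11.2 (Lims2) and -4.08 (Parvb) points, but 5 pairs cannot give a sign-flip p below 0.0625, so the test says nothing about stability. When single samples were left out, the differences ran from -14.7 to -12.6, from -12.8 to -9.75 and from -4.70 to -2.73 points, and as shares of raw counts they were -15.6, -6.23 and -3.63.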
